A study of Mus musculus with 12 samples.

Results

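The genes described here are 7 genes of ductal and simple epithelia, Krt7, Krt8, Krt18, Krt19, Epcam, Spp1 and Cdh1. They were chosen by symbol, with earlier results of these data known, and all 7 had a row in a count table of 14089 genes. The table came from RNA sequencing of pancreatic islets that had been isolated from C57BL/6J mice by collagenase perfusion and were kept for 24 hours under one of 4 treatments. Islets of the first group received a mixture of pro-inflammatory cytokines (IL-1β at 5 ng/ml, TNF-α at 10 ng/ml and IFN-γ at 100 ng/ml) together with 10 µM ML351, a small-molecule inhibitor of a lipoxygenase; this group is also called the combination. The other groups received the cytokines alone, ML351 alone or vehicle. Each group had 3 libraries. Cytokine mixtures of this kind are used as a model of islet inflammation in type 1 diabetes, and they act on every cell type that an islet preparation contains.

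Keratins are the intermediate filament proteins of epithelia, and a filament forms from a type II keratin paired with a type I keratin. Simple, single-layered epithelia such as pancreatic ducts use the type II keratins encoded by Krt8 and Krt7 with the type I keratins encoded by Krt18 and Krt19. Epcam and Cdh1 encode membrane proteins that hold epithelial cells together, and both are also made by endocrine islet cells. Spp1 encodes osteopontin, a secreted glycoprotein that is abundant in pancreatic ducts and is also made by macrophages.

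Krt7, Krt8 and Krt18 lie in the type II keratin cluster of mouse chromosome 15, in which Krt18 is the one type I gene. Krt8 (chromosome 15, 101996698 to 102004482, minus strand, GRCm38) and Krt18 (102028180 to 102032027, plus strand) are neighbours 23.7 kb apart. Krt7 lies at 101411043 to 101430313 on the plus strand. Their upstream sequences are shown because Krt8 and Krt18 rose together in both cytokine comparisons below while Krt7 rose less. Each is the 250 bases before the start of the RefSeq gene (GRCm38.p6), written 5′ to 3′ along the gene's strand. Krt8 is at chr15:102004343-102004592 (minus strand), Krt18 at chr15:102027966-102028215 (plus strand) and Krt7 at chr15:101412153-101412402 (plus strand). Capitals mark matches to the motifs searched.
Krt8: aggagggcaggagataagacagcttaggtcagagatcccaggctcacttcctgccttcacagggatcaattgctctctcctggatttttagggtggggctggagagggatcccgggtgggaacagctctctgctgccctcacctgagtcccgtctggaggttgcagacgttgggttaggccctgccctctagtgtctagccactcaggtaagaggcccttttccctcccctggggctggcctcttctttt
Krt18: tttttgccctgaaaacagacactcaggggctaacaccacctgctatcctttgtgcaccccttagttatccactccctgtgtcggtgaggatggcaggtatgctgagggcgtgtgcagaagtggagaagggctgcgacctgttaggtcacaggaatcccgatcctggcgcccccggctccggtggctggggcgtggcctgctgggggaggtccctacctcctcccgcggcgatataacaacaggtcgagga
Krt7: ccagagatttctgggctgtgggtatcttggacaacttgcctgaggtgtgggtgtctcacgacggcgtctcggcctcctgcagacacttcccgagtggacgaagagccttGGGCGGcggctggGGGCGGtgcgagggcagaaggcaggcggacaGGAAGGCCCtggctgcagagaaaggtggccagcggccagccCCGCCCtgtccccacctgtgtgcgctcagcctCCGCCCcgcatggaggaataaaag
The RefSeq promoter table held 6 promoters of 5 of the 7 genes, without Krt19 and Cdh1. Both strands of 300 bases (250 before the start and 50 after it) were searched for the letters of 4 motifs. A STAT motif (TTCNNNGAA) is found in 8.3% of all 32851 promoters of the table, an AP-1 motif (TGANTCA) in 7.81%, a GC box (GGGCGG) in 35.7% and an NF-κB-like motif (GGGNNTTCC) in 5.82%. The windows of Krt8, Krt18 and Spp1 held none of the 4. The Krt7 window held 4 GC boxes, the first 141 bases before the start, and 1 NF-κB-like match on the minus strand 97 bases before the start. The Epcam window held 1 GC box on the minus strand. These are matches of letters and not shown to be bound sites.

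Library totals lay between 20208286 and 27193026 counts. Levels are given as CPM, counts scaled to a common library size after TMM normalisation. The preparation carried the hormone transcripts of islets: 10 β-cell markers summed to 257000 to 380000 CPM in the 12 libraries, and none of them was at 0. The leading axis of a principal component analysis of the 12 libraries held 82.3% of the variance. On the second axis, with 5.14%, cytokines replicate 1 and ML351 replicate 1 stood farthest out, so calls and list counts that change when both are left out are also given without them. These are bulk samples, in which a smaller number of cells of one type and less RNA per cell cannot be told apart.

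With cytokines, 6 of the 7 genes rose and none fell. Of these 6, the keratin pair Krt8 and Krt18 rose most, 7.65-fold and 4.64-fold over vehicle, followed by Spp1 (3.73-fold), Cdh1 (1.89-fold), Krt7 (1.72-fold) and Epcam (1.71-fold). Krt19, at 5.76-fold, did not pass the test and varied widely between libraries of the same treatment. The same 6 genes were called when cytokines plus ML351 were set against ML351 alone, and no gene of the 7 was called with ML351 against vehicle. Most genes of these islets moved with cytokines: edgeR called 72.5% of the 14089 genes, 35.3% higher and 37.2% lower, so 6 rises in 7 are to be read against a background in which a change is common.

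**Figure D1:**
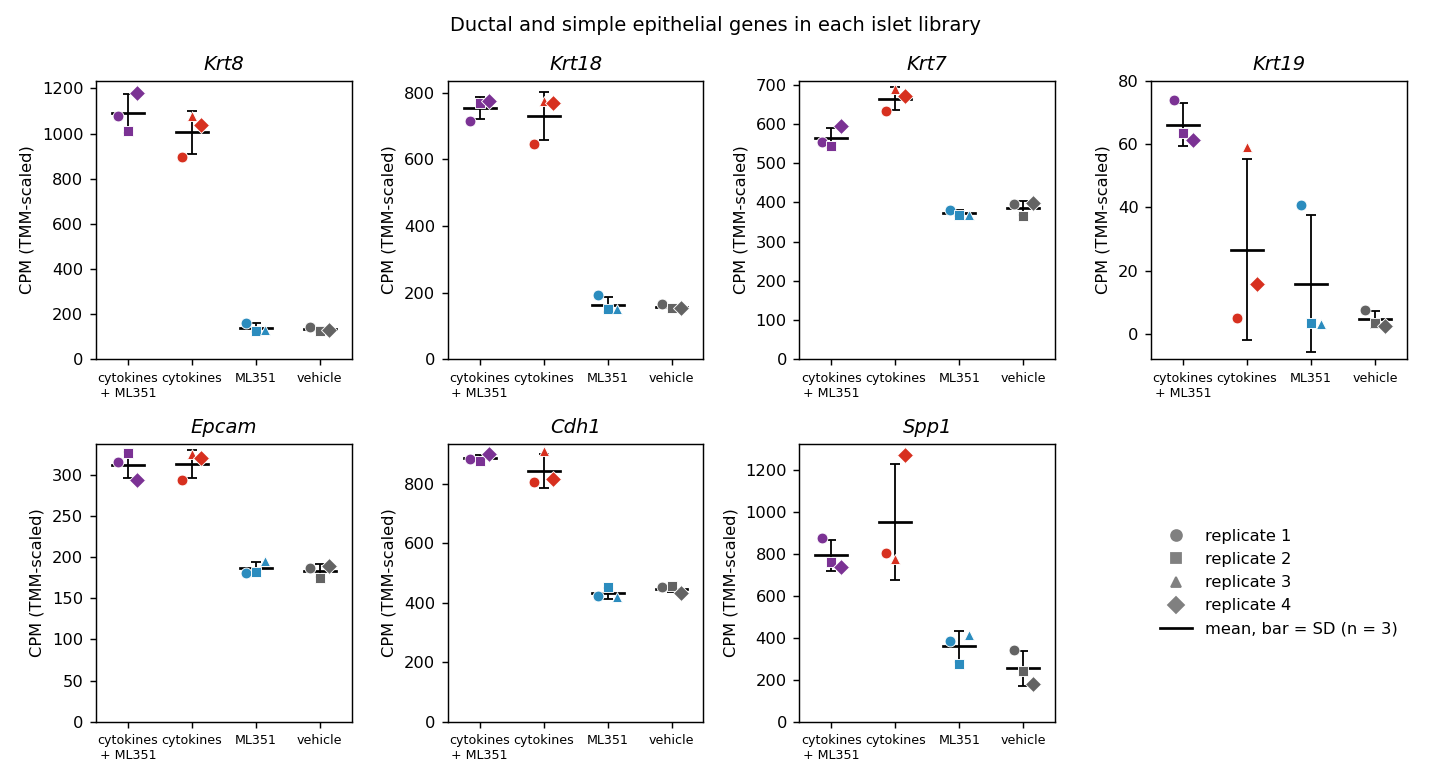
Level of each of the 7 genes in each library, in CPM on a linear axis, by treatment (cytokines plus ML351, cytokines, ML351, vehicle); points are libraries with a shape per replicate number, lines are means and bars are SD (n = 3). All 6 libraries with cytokines lie above all 6 without for each gene except Krt19, whose 3 cytokine libraries run from 4.84 to 59 CPM.

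Krt8, the type II keratin of simple epithelia, had 1080, 1010 and 1180 CPM in islets given cytokines plus ML351 (replicates 1, 2 and 4) and 897, 1080 and 1040 CPM with cytokines (replicates 1, 3 and 4). It had 162, 125 and 130 CPM with ML351 (replicates 1, 2 and 3) and 144, 123 and 127 CPM with vehicle (replicates 1, 2 and 4). Every library with cytokines was far above every library without, and the spread within a group was small beside the gap. The log2 fold change was 2.94 with cytokines against vehicle (SE 0.111, 95% interval 2.69 to 3.18, edgeR adjusted p = 3.14e-11), and 3.73% of all genes had a larger one. With cytokines plus ML351 against ML351 it was 2.97 (SE 0.111, 2.73 to 3.22, edgeR adjusted p = 3.04e-11).

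Krt18, the type I partner of Krt8, had 716, 770 and 777 CPM with cytokines plus ML351 and 647, 775 and 769 CPM with cytokines. It had 191, 151 and 149 CPM with ML351 and 164, 154 and 154 CPM with vehicle, in the same replicate order as for Krt8. Again the groups with and without cytokines did not overlap. The log2 fold change was 2.22 with cytokines against vehicle (SE 0.0944, 2.01 to 2.42, edgeR adjusted p = 1.4e-11) and 2.20 with cytokines plus ML351 against ML351 (SE 0.0942, 2.00 to 2.41, edgeR adjusted p = 1.56e-11). Of all genes, 5.67% had a larger value in the first comparison.

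The balance of the keratin pair differed between treatments. Krt8 had 1.51, 1.31 and 1.52 counts per Krt18 count with cytokines plus ML351, and 1.39, 1.39 and 1.35 with cytokines. The ratio was 0.846, 0.824 and 0.876 with ML351 and 0.883, 0.801 and 0.82 with vehicle. Krt18 counts thus exceeded Krt8 counts in each library without cytokines, and Krt8 counts exceeded Krt18 counts in each library with them. The ratio was chosen after its values were seen and was not tested. Per kilobase of exon, which allows levels of different genes to be compared, the pair stood at 557 ± 45 (Krt8) and 525 ± 23.2 (Krt18) CPM per kb with cytokines plus ML351, and at 516 ± 48.6 and 508 ± 50.2 with cytokines (SD, n = 3). With vehicle Krt8 was at 66.9 ± 5.82 CPM per kb and Krt18 at 109 ± 3.79, beyond their spread.

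**Figure D2:**
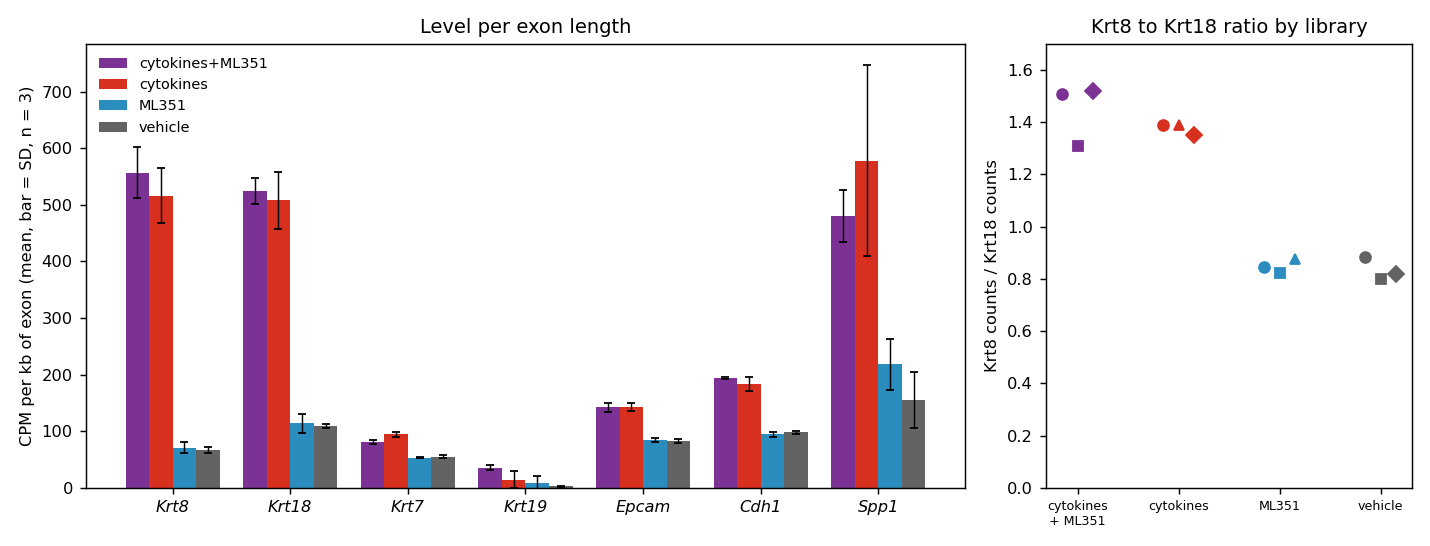
Left, mean level per exon length (CPM per kb of exon, linear axis) of each gene in the 4 treatments, with bars for SD (n = 3; lower ends below 0 are not drawn). Right, counts of Krt8 divided by counts of Krt18 in each library, which run from 1.31 to 1.52 with cytokines, with or without ML351, and from 0.801 to 0.883 without cytokines.

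Krt7, a type II keratin of ducts and other simple glandular epithelia, had 555, 545 and 595 CPM with cytokines plus ML351 and 633, 689 and 673 CPM with cytokines. It had 382, 367 and 369 CPM with ML351 and 396, 366 and 398 CPM with vehicle. Its 3 levels, without cytokines, with cytokines plus ML351 and with cytokines alone, did not overlap. Krt7 rose by 0.78 on the log2 scale with cytokines against vehicle (SE 0.0556, 95% interval 0.67 to 0.90, edgeR adjusted p = 9.93e-10). With cytokines plus ML351 against ML351 it rose by 0.60 (SE 0.0555, 0.48 to 0.72, edgeR adjusted p = 3.43e-08). For each Krt8 count there were 0.706, 0.64 and 0.646 Krt7 counts in the cytokine libraries, against 2.74, 2.98 and 3.14 in the vehicle libraries. Krt8 thus had more counts than Krt7 with cytokines and fewer with vehicle.

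Krt19 (chromosome 11, 100140810 to 100148665, minus strand) encodes the type I keratin by which mouse duct cells are most often told from endocrine and acinar cells. It had 74, 63.5 and 61.2 CPM with cytokines plus ML351 (1514, 1437 and 1181 counts) and 4.84, 59 and 15.9 CPM with cytokines. With ML351 it had 40.9, 3.28 and 3.23 CPM, and with vehicle 7.64, 3.41 and 2.53 CPM. The combination group was uniform and higher than every other library, while single libraries of the cytokine and ML351 groups differed more than 10-fold from each other. The highest library of a group was 1.21 times the lowest with cytokines plus ML351, 12.2 times with cytokines, 12.7 times with ML351 and 3.02 times with vehicle.

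No comparison of Krt19 passed the test. Its log2 fold change was 2.53 with cytokines against vehicle (SE 1.25, 95% interval -0.35 to 5.40, edgeR adjusted p = 0.101) and 2.09 with cytokines plus ML351 against ML351 (SE 1.10, -0.43 to 4.60, edgeR adjusted p = 0.12). Without ML351 replicate 1, the library at 40.9 CPM, both were called: 2.54 (edgeR adjusted p = 0.0347) and 4.36 (0.00851). Leaving out some other libraries lowered the values. Cytokines against vehicle was 1.15 without cytokines replicate 3 (edgeR adjusted p = 0.447). The second comparison was 1.59 and 1.60 without ML351 replicates 2 and 3 (edgeR adjusted p = 0.261 and 0.254). Over all removals of 1 library, the first comparison ran from 1.15 to 3.15 and the second from 1.59 to 4.36. Without both libraries at the ends of the second principal component, an alternative chosen after seeing the data, the values were 3.04 (edgeR adjusted p = 0.00524) and 4.36 (0.00184).

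Other duct genes and the RNA of acinar cells, the enzyme-producing cells of the exocrine pancreas, stood high in some of the same libraries. Krt23, a type I keratin, had 19.9, 12.6 and 10 CPM with cytokines plus ML351, 0.363, 7.31 and 2.27 with cytokines, 8.03, 0.109 and 0.0394 with ML351, and 0.34, 0.467 and 0.23 with vehicle. Within each of these groups except vehicle its order of libraries was that of Krt19. Muc1, an epithelial membrane mucin, had 30.5, 39.9 and 27.9 CPM with cytokines plus ML351, 12.6, 28.9 and 33.4 with cytokines, 10.2, 1.82 and 3.35 with ML351, and 4.41, 4.34 and 1.89 with vehicle. The 24 acinar markers of 34 in the table, none of them at 0, summed to 1480, 1740 and 1180 CPM with cytokines plus ML351, and to 55.5, 713 and 1020 with cytokines. They summed to 362, 414 and 215 CPM with ML351 and to 810, 557 and 266 with vehicle. The cytokine library lowest in Krt19 was thus also the lowest in acinar RNA, but ML351 replicate 1, high in Krt19, was not the highest of its group in acinar RNA. With the acinar sum as a covariate, Krt19 stood at 2.64 with cytokines against vehicle (edgeR adjusted p = 0.0718) and at 0.49 with cytokines plus ML351 against ML351 (0.758). The call of Spp1 in the second comparison ended with this covariate, while those of Krt8, Krt18, Krt7, Epcam and Cdh1 held in both. The acinar sum of every combination library lay above that of every other library. In comparisons with the combination this covariate therefore cannot be told apart from treatment, and no call there can be read as adjusted for acinar RNA.

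**Figure D3:**
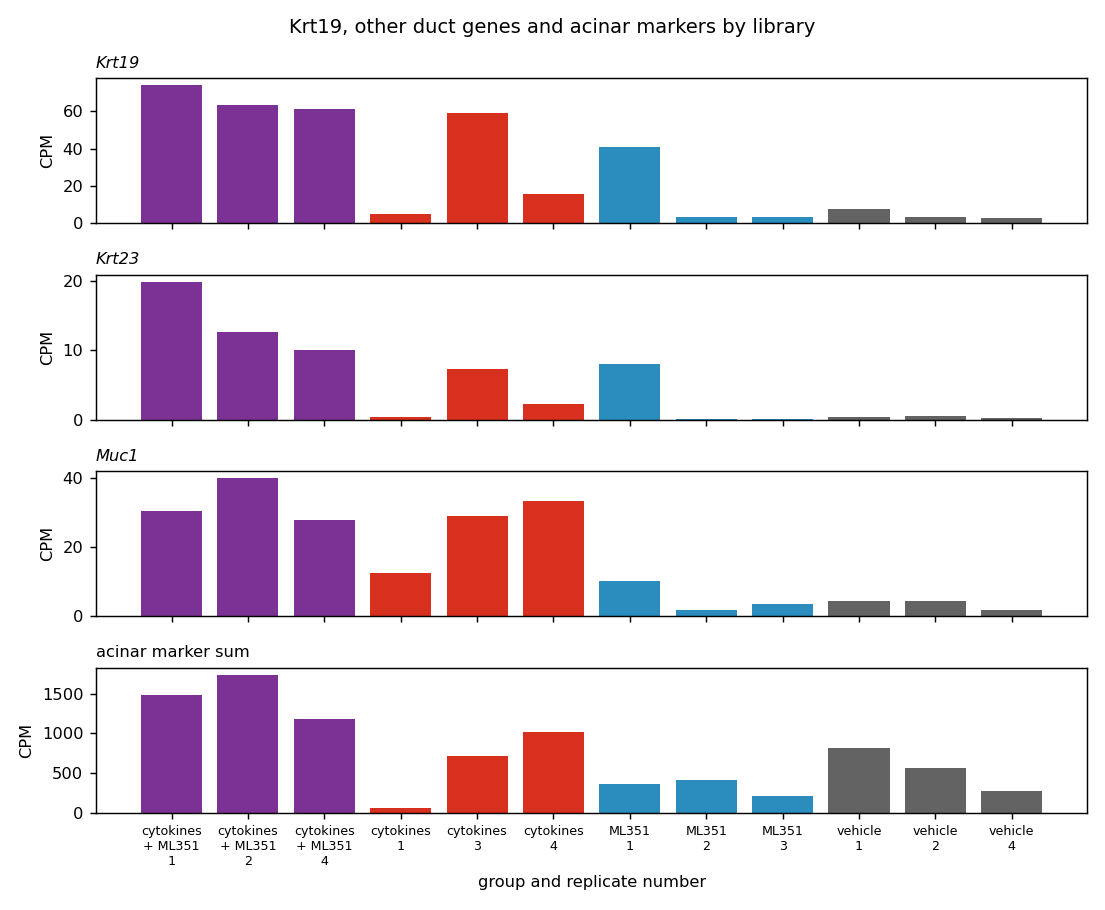
Level of Krt19, of the duct genes Krt23 and Muc1 and of the summed acinar markers in each library (CPM, linear axes that start at 0), ordered by treatment and replicate number. Krt19 is at 61.2 to 74 CPM in all 3 libraries with cytokines plus ML351, at 59 in 1 cytokine library and at 40.9 in 1 ML351 library.

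Epcam (chromosome 17, 87635979 to 87651129, plus strand), the gene of the epithelial cell adhesion molecule, had 315, 326 and 294 CPM with cytokines plus ML351 and 294, 325 and 320 CPM with cytokines. It had 181, 182 and 195 CPM with ML351 and 187, 174 and 189 CPM with vehicle. The libraries of the same cytokine status were hard to tell apart, and those with cytokines all lay above those without. Epcam rose by 0.77 on the log2 scale with cytokines against vehicle (SE 0.0602, 95% interval 0.64 to 0.90, edgeR adjusted p = 3.4e-09) and by 0.74 with cytokines plus ML351 against ML351 (0.62 to 0.87, edgeR adjusted p = 5.9e-09).

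Cdh1 (chromosome 8, 106603351 to 106670246, plus strand), which encodes E-cadherin, the adhesion receptor of adherens junctions, had 883, 877 and 898 CPM with cytokines plus ML351 and 805, 909 and 815 CPM with cytokines. It had 424, 453 and 418 CPM with ML351 and 452, 455 and 433 CPM with vehicle. The gap between islets with and without cytokines was again wider than the spread of any group. Cdh1 rose by 0.91 with cytokines against vehicle (SE 0.0567, 0.79 to 1.03, edgeR adjusted p = 1.62e-10) and by 1.04 with cytokines plus ML351 against ML351 (0.92 to 1.16, edgeR adjusted p = 3.43e-11).

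Spp1 (chromosome 5, 104435118 to 104441050, plus strand) was the most variable of the called genes. It had 878, 761 and 738 CPM with cytokines plus ML351 and 806, 777 and 1270 CPM with cytokines. With ML351 it had 387, 276 and 415 CPM, and with vehicle 344, 240 and 181 CPM. Groups with and without cytokines did not overlap, and cytokines replicate 4 stood above the other libraries. Spp1 rose by 1.90 with cytokines against vehicle (SE 0.291, 1.23 to 2.57, edgeR adjusted p = 0.000326) and by 1.14 with cytokines plus ML351 against ML351 (SE 0.284, 0.49 to 1.79, edgeR adjusted p = 0.00614). The second call ended with the acinar sum as a covariate (0.86, edgeR adjusted p = 0.0549), which in this comparison cannot be told apart from treatment.

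Like Spp1, the summed macrophage markers stood higher with cytokines. With ML351 alone their sum was below that with vehicle, but neither Spp1 nor any of the 15 markers was called there. The sum of 15 such markers, none of them at 0, was 313 to 319 CPM with cytokines plus ML351, 348 to 366 with cytokines, 169 to 193 with ML351 and 225 to 232 with vehicle. Of the 15, 10 rose and 1 fell with cytokines against vehicle, with Cd68, a lysosomal glycoprotein of macrophages, at 2.89 and Lyz2, which encodes lysozyme, at -0.49. Their part in the Spp1 values was not tested.

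In the first comparison, 6 of 7 genes rose, against 35.3% of all genes, and their median log2 fold change was 1.90, against -0.02 over all genes. In the second, cytokines plus ML351 against ML351, 6 of 7 rose, against 35.2% of all genes (71.5% were called in either direction), with a median of 1.14 against -0.02. CPM of the groups compared did not overlap for 6 genes in the first comparison and for 7 in the second, while this held for 76.6% and 74% of all genes. Because the 7 genes were chosen with earlier results of these data known, these shares describe them and are no test of enrichment.

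**Figure D4:**
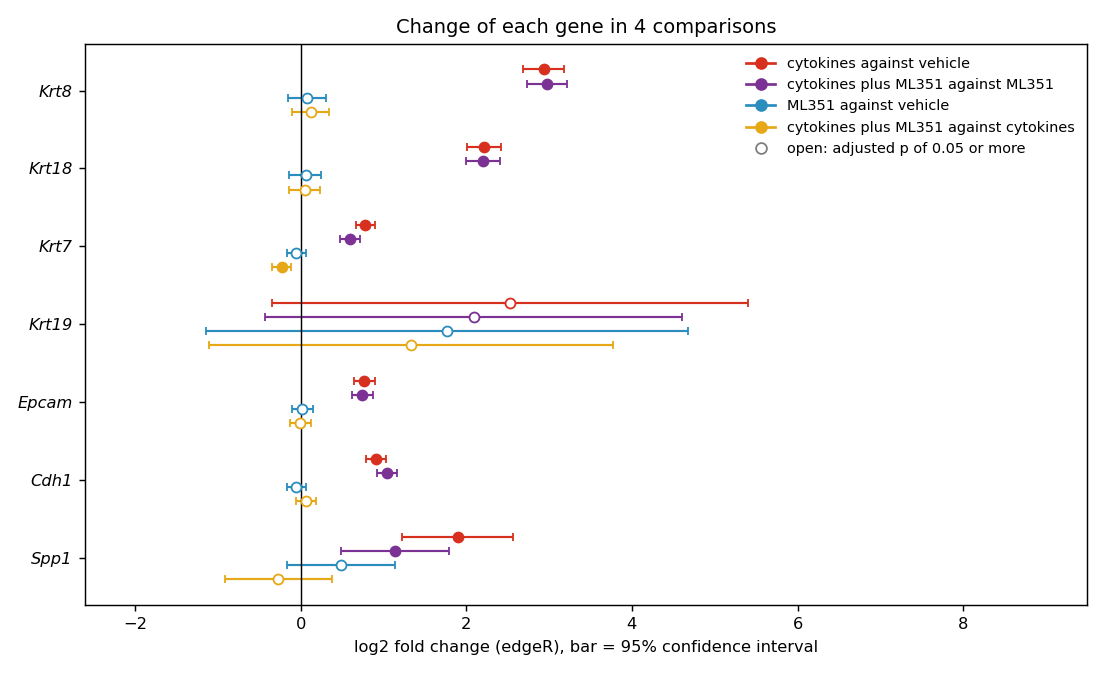
Log2 fold change of each gene in 4 comparisons, with 95% confidence intervals; filled points passed an adjusted p of 0.05 and open points did not. Krt8 is at 2.94 and Krt18 at 2.22 with cytokines against vehicle, the intervals of Krt19 span 0 throughout, and Krt7 alone is called with cytokines plus ML351 against cytokines.

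ML351 without cytokines was compared with vehicle to see what the inhibitor does on its own. EdgeR and DESeq2 called 0 of the 7 genes, 0 of them had an unadjusted p under 0.05, and edgeR called 0.0355% of all genes (5 genes, with 1265 at an unadjusted p under 0.05). The 95% interval of the log2 difference was -0.15 to 0.31 for Krt8, -0.14 to 0.25 for Krt18, -0.17 to 0.06 for Krt7, -0.11 to 0.15 for Epcam and -0.17 to 0.07 for Cdh1. It was wider for Spp1 (-0.16 to 1.14) and for Krt19 (-1.14 to 4.68). Groups overlapped for all 7 genes (15.9% of all genes did not overlap). The absence of a call does not exclude differences inside these intervals.

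Cytokines plus ML351 against cytokines asked whether the inhibitor alters expression in the inflamed state. Krt7 was the one gene of the 7 to be called, and it was lower with the combination, at 565 ± 25.9 CPM against 665 ± 28.8 CPM with cytokines alone (SD, n = 3 each). The log2 fold change was -0.23 (SE 0.0552, 95% interval -0.35 to -0.12, edgeR adjusted p = 0.0474), and 1.43% of all genes were called, with 0.788% of all genes called lower. All 3 combination libraries were below all 3 cytokine libraries, and CPM of the groups did not overlap for 20.4% of all genes. The call lay at the threshold and ended under 13 of 21 alternatives, whose edgeR or DESeq2 adjusted p ran from 0.000465 to 0.153. It ended without vehicle replicate 1 (0.0722), 2 (0.0576) or 4 (0.0638), ML351 replicate 2 (0.0548), cytokines replicate 1 (0.051), 3 (0.153) or 4 (0.129), and combination replicate 1 (0.0832) or 2 (0.13), all edgeR adjusted p, and without both libraries at the ends of the second axis (0.0755).

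For the other 6 genes the difference did not pass the test. Its 95% interval was -0.11 to 0.34 for Krt8, -0.14 to 0.24 for Krt18, -0.13 to 0.12 for Epcam, -0.05 to 0.19 for Cdh1, -0.91 to 0.38 for Spp1 and -1.11 to 3.77 for Krt19. Krt19 did not overlap between these groups, with 61.2 CPM as the lowest combination library and 59 as the highest cytokine library.

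The interaction asked whether the cytokine effect differs with ML351 present. EdgeR called 0 of the 7 genes and 0.0071% of all genes (1 gene, with 1160 at an unadjusted p under 0.05). DESeq2 called 0 of the 6 to which it gave an adjusted p. Before adjustment, the edgeR value of 1 of the 7 genes, Krt7, was under 0.05. The interaction was -0.18 for Krt7 (95% interval -0.35 to -0.02, edgeR adjusted p = 0.569) and -0.76 for Spp1 (-1.67 to 0.15, edgeR adjusted p = 0.657). For Krt8 it was 0.04 (-0.28 to 0.36), for Krt18 -0.01 (-0.28 to 0.26), for Epcam -0.03 (-0.21 to 0.15), for Cdh1 0.12 (-0.05 to 0.29) and for Krt19 -0.44 (-4.23 to 3.35).

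Per kilobase of exon, the levels with cytokines ran in the order Spp1 (578 ± 169 CPM per kb), Krt8 (516 ± 48.6), Krt18 (508 ± 50.2), Cdh1 (184 ± 12.5), Epcam (143 ± 7.52), Krt7 (94.3 ± 4.09) and Krt19 (14.3 ± 15.4; SD, n = 3). Spp1, Krt8 and Krt18 were not separated by their spread. With vehicle the order was Spp1 (155 ± 49.9 CPM per kb), Krt18 (109 ± 3.79), Cdh1 (97.7 ± 2.6), Epcam (83.4 ± 3.6), Krt8 (66.9 ± 5.82), Krt7 (54.9 ± 2.5) and Krt19 (2.44 ± 1.47), and Spp1 and Krt18 did not differ beyond their spread. Krt8 stood next to Krt18 with cytokines and below Epcam with vehicle. Lengths are unions of all annotated exons, and the 7.05 kb of Krt7 sets its values low. Krt19 was far below the other members in the vehicle libraries, as was Sox9, the transcription factor of duct cells, at 1.4, 1.45 and 1.06 CPM. The levels of the other 6 genes therefore cannot be assigned to duct cells from these values, and ductal is used here only as the name of the gene set.

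Within a treatment, the levels of the keratins were correlated from library to library, Krt7 less than the others. After subtraction of each group's mean, log2 CPM of Krt8 and Krt18 had a Pearson r of 0.86 over the 12 libraries, Krt18 and Krt19 of 0.9, Krt8 and Krt19 of 0.86 and Krt7 and Krt8 of 0.79. The remaining keratin pairs were lower, Krt7 and Krt18 at 0.61 and Krt7 and Krt19 at 0.54. Values of a pair share a library and its depth, and r is given as a description. ML351 replicate 1 was 0.23 above its group's mean for Krt8, 0.24 for Krt18 and 2.41 for Krt19, and cytokines replicate 1 deviated by -0.16, -0.17 and -1.76. Epcam and Cdh1 were less tied to the keratins and to each other (r of -0.01 between Epcam and Cdh1, 0.15 between Krt19 and Epcam), and Spp1 and Cdh1 were at -0.3.

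**Figure D5:**
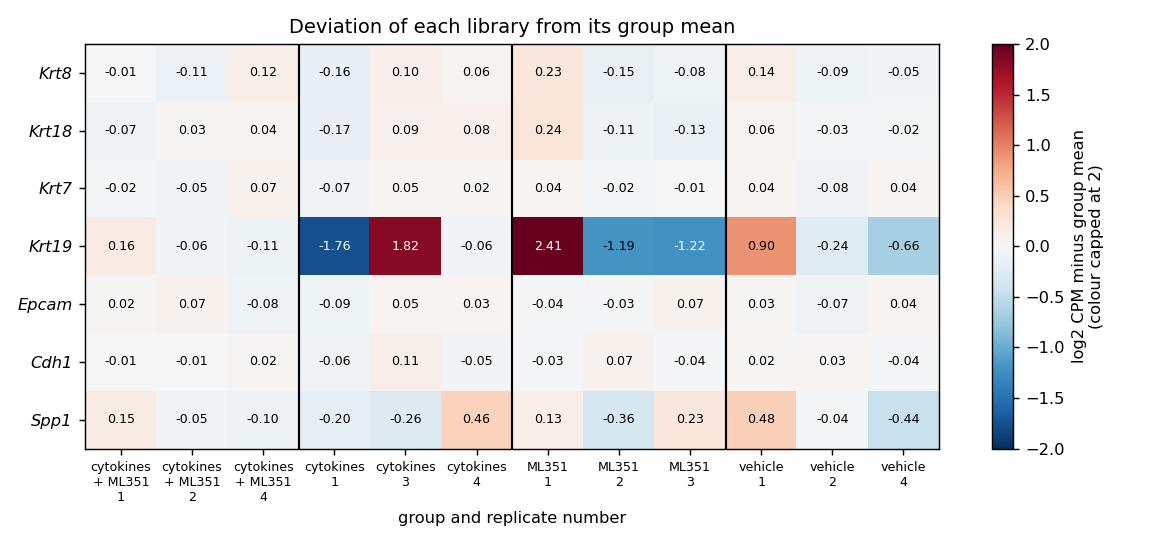
Deviation of each library from its group's mean in log2 CPM, for each gene; colour is capped at 2 and each cell carries its value. Krt19 deviates by up to 2.41 (ML351 replicate 1), and Krt8 and Krt18 deviate the same way in that library and in cytokines replicate 1.

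By the same measure, the genes whose within-group pattern was most like that of a member were as follows. Krt19 was most like Tmem125 (r = 0.966), Vill (0.964) and Abcc3 (0.96). Krt18 was most like Anxa4 (0.955), Rbm33 (0.946) and S100a11 (0.93), and Krt8 like Zc3h6 (0.942) and Fam107b (0.923). Krt7 had Sec13 (0.945), Mrps10 (0.939) and Mrps18a (0.924) nearest. Epcam had Pafah2 (0.938), Chd1l (0.926) and Pcbp2 (0.915), Cdh1 had Epb4.1l4b (0.95), Arfgap1 (0.917) and Gosr2 (0.907), and Spp1 had Tmem176b (0.904), Ak6 (0.903) and Cbwd1 (0.897). These are the highest values found among all genes, over 12 libraries, and carry no test.

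Other genes of the same structures moved in both directions with cytokines against vehicle, as all genes did (35.3% higher and 37.2% lower, median -0.02), and the counts of each list are to be read beside those shares. Of 23 keratins and keratin linkers tested 9 rose and 8 fell (median 0.51), and nothing particular to these lists is read from such counts. The desmosome genes Pkp3 (1.39; 18.2 ± 0.993 CPM with cytokines and 6.94 ± 0.84 with vehicle) and Dsg2 (1.56, chosen after its value was seen) rose. Krtcap3 (1.05) and Krtcap2 (0.79) rose as well, and Jup, which encodes plakoglobin, fell (-0.68). Of 17 genes of cadherin-catenin junctions 8 rose and 3 fell (median 0.32). Partners of E-cadherin were among those that rose: Vcl, which encodes vinculin (2.08; 92 ± 2.98 CPM with cytokines and 21.8 ± 1.32 with vehicle), Ctnna1, which encodes α-catenin (1.22), Ctnnb1, which encodes β-catenin (0.68), and the actin-binding Lima1 (0.79). Jup, which belongs to this list as well, was among those that fell.

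Of 25 tight junction and polarity genes 10 rose and 9 fell (median 0.58). The claudin gene Cldn7 (1.86; 310 ± 10.4 CPM with cytokines and 85.3 ± 3.08 with vehicle) and F11r, which encodes junctional adhesion molecule A (1.86), rose, and Cldn6 fell (-3.48). Of 17 epithelial regulators and surface genes 8 rose and 4 fell (median 0.05). Elf3, an epithelial transcription factor (2.14), Grhl1 (1.40) and the protease inhibitor gene Spint1 (0.90) rose, and Ovol2, a repressor of mesenchymal genes, fell (-2.72). Of 13 mesenchymal transition genes 4 rose and 3 fell (median 0.68), with Snai2, which encodes the repressor Slug, at 2.49, S100a4 at 1.95, Tgfbi at 1.47 and Acta2 at -2.30. With both groups compared alone, 8 of the mesenchymal genes rose.

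Of 14 receptors and partners of osteopontin 8 rose and 1 fell (median 0.69). The receptor subunit genes Itgav (0.83), Cd44 (0.77) and Itgb1 (0.50) rose, and Itga4 fell (-1.14; 2 genes fell without combination replicate 2 or 4). Of 10 genes of acinar-to-ductal change and injury 6 rose and 1 fell (median 2.03), with Klf5 at 2.30, the secreted lipocalin gene Lcn2 at 5.78 (1660 ± 183 CPM with cytokines and 30 ± 12 with vehicle) and Hnf4a at -1.48.

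Of 18 other duct genes tested 5 rose and 5 fell (median 1.13). Muc1 (2.80), Car2 (4.02), Clu (0.88), Anxa2 (1.32) and Lcn2 rose, and those that fell included Tspan8 (-1.76), Prom1 (-0.79), Pkhd1 (-1.79) and Bicc1 (-1.14), all with edgeR adjusted p under 0.05 over all genes. The levels of Car2 were low and uneven, at 0.726, 6.87 and 1.41 CPM with cytokines and 0.34, 0.14 and 0.046 with vehicle. Prom1, which encodes a membrane protein of epithelial cells, was at 131 ± 18.6 CPM with cytokines and 225 ± 16.9 with vehicle. Sox9 was at 0.18 (edgeR adjusted p = 0.839), Krt23 at 3.22 (0.144) and Krt20 at 1.98 (0.179). The number that rose depended on single libraries: it was 9 without cytokines replicate 1, and 3 without cytokines replicate 3, vehicle replicate 2 or ML351 replicate 3. It was 3 with the replicate block and 11 without both libraries at the ends of the second axis. In the combination against ML351, 7 of the 18 rose and 5 fell (median 1.44), among those that rose Muc1 (2.70) and Clu (1.77). These 7 became 3 with the acinar sum as a covariate and 11 without both libraries. Cftr and Onecut1 are not analysed here.

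The same lists with cytokines plus ML351 against ML351 gave 10 higher and 8 lower keratins and linkers, and 9 higher and 4 lower cadherin-catenin genes. There were 12 higher and 6 lower tight junction genes, 9 higher and 4 lower epithelial regulators, 3 higher and 3 lower mesenchymal genes (6 higher without ML351 replicate 3), 8 higher and 1 lower osteopontin partners (2 lower without combination replicate 2), and 6 higher and 1 lower injury genes. Between the combination and cytokines, edgeR called few genes of these lists: Ppl, which encodes periplakin (0.68, adjusted p = 0.0292), Pvrl2, which encodes nectin-2 (0.57, 0.0498), and Cdh2, which encodes N-cadherin (-0.37, 0.0179). These calls ended under 8, 15 and 6 of 21 alternatives. That of Ppl ended without cytokines replicate 1 or 4 or combination replicate 1 or 2, and that of Cdh2 without cytokines replicate 1 or combination replicate 2. That of Pvrl2 ended without any one of the vehicle or cytokine libraries, ML351 replicate 2, or combination replicate 1 or 2.

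Markers of other cell types moved as well. All 12 endothelial markers fell with cytokines against vehicle (median -1.96; Kdr at -3.12, Plvap at -2.88), as did 9 of 14 stellate and fibroblast markers (median -1.17), with 1 higher. The 9 became 3 without vehicle replicate 2 or cytokines replicate 3, and 5 without cytokines replicate 1. Without both libraries at the ends of the second axis 4 of the stellate and fibroblast markers fell, and the call of the one that rose ended. Of the β-cell markers 8 of 10 fell (Ucn3 at -5.03, Pdx1 at -3.35), and all 6 α-cell markers fell (Irx2 at -4.17). Of the 24 acinar markers 1 was called, the transcription factor gene Bhlha15 (-3.27), while Ctrl, for example, stood at 1.15 (edgeR adjusted p = 0.268). Without cytokines replicate 1, 2 acinar markers rose, and 1 rose without both libraries. Against ML351, 15 acinar markers rose with the combination and 1 fell. The 15 became 5, 9 and 4 without ML351 replicates 1, 2 and 3, and 7, 8 and 9 without combination replicates 1, 2 and 4. Against cytokines alone, 5 of the 12 endothelial markers were lower with the combination (median -0.82), a count that was not recomputed under the alternatives. The macrophage genes C1qc (-0.48, edgeR adjusted p = 0.0313) and Laptm5 (-0.63, 0.0465) were lower as well and Bhlha15 was higher (0.57, 0.035). These calls ended under 9, 14 and 11 of 21 alternatives, among them the removal of cytokines replicate 1 or 4 or of combination replicate 1 or 2. Of 8 mesothelial markers 2 were in the table: Gpm6a (-3.28) fell and Msln was at 0.31 (edgeR adjusted p = 0.213) with cytokines against vehicle. The part of these cells in the values of the 7 genes was not tested.

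The libraries were not stranded, so reads from overlapping genes on either strand can be shared. Exons of Krt8 overlap a long noncoding RNA (Gm36026) over 5.16% of their length, those of Krt7 an antisense gene (Gm671) over 1.09% and those of Spp1 a gene model on its own strand (Gm42793) over 18.8%. The processed pseudogene Krt8-ps may share reads with Krt8. None of these partners has a row in the table used here.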

How the data were processed

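RNA was measured in 12 islet libraries, 3 per treatment. Libraries were nonstranded and made with the SMARTSeq v4 kit, per the labels' protocols. The authors deposited 1 table of raw counts per gene symbol. Tools listed in the submitters' processing notes are STAR, featureCounts, Subread, FastQC and DESeq2, with mm10 as the build; their versions and settings are not stated there.

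The 7 genes and the 15 other gene lists were chosen with earlier results of these data known. Whether replicate libraries stem from different animals or cultures is not stated, so p-values cover only the spread between these libraries, which may be technical. In no pair of libraries of a group did counts match within sampling noise.

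Changes were tested with edgeR 4.0.16 in R 4.3.3 (quasi-likelihood F-test, robust fit), TMM scaling and filterByExpr, which removed no gene, on all 12 libraries with a mean per group. The p-values were adjusted by Benjamini-Hochberg over 14089 genes per comparison, and genes were called at 0.05. A standard error (SE) is the absolute log2 fold change over √F, and intervals are 95% t intervals. The procedure was tested on simulated data. CPM use TMM-scaled totals, and log2 CPM a prior count of 2. Exon lengths and positions came from GENCODE on GRCm38, the assembly of mm10, and promoters from RefSeq.

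Besides the 7 genes, the text names up to 4 genes per list with the smallest p in cytokines against vehicle at an average log2 CPM of at least 1. It also names the 3 genes most like each member by within-group r, and all called genes of a list where fewer than 5 were called. A few genes that this rule selects are not reported here. Krt23, Muc1, Car2, Clu, Anxa2, Tspan8, Pkhd1, Sox9, Krt20, Dsg2, Msln and Ctrl fall partly outside this rule and were picked with their values known. Alternatives were RLE scaling, DESeq2 1.42.0, no filter, a filter of at least 1 CPM in 3 libraries, groups compared alone, a replicate block, removal of hormone genes, the acinar marker sum as covariate and leaving out each library.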

Additional observations from a re-analysis of the deposited data

How the results depend on the processing

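The calls of Krt8, Krt18, Krt7, Epcam, Cdh1 and Spp1 with cytokines against vehicle held under all 21 alternatives, as did those of Krt8, Krt18, Krt7, Epcam and Cdh1 with cytokines plus ML351 against ML351. Among these, the fit with no filter could not differ from the main fit, since filterByExpr removed no gene. Removing 2 libraries at the ends of the second principal component, and all list counts, were added after seeing the data. For Krt19 with cytokines against vehicle, DESeq2 gave 2.58 (adjusted p = 0.0263). With ML351 against vehicle 5 genes were called: 0 under RLE scaling, the replicate block, the acinar covariate or without the 2 libraries, 110 by DESeq2, 16 with groups compared alone, and 0 to 17 without 1 library. With cytokines plus ML351 against cytokines 202 genes were called: 527 by DESeq2, 59 with groups compared alone, 53 with the replicate block, 7 with the acinar covariate, 76 without the 2 libraries, and 54 to 236 without 1 library. The single member called there, Krt7, left 0 with groups alone, the replicate block (edgeR adjusted p = 0.119), the acinar covariate or without the 2 libraries, and 0 to 1 without 1 library. For the interaction 1 gene was called: 58 by DESeq2, 0 with the block, the acinar covariate or without the 2 libraries, and 0 to 1 without 1 library. The cause was not tested, and the acinar covariate cannot be told apart from treatment in comparisons with the combination.

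Whether equal replicate numbers pair the samples is not known. Of 13 same-number pairs, 2 had a correlation of deviations over 0.1 (range -0.377 to 0.202), which with 3 libraries per group cannot settle it. Signs that turned were all of values that were not called. With ML351 against vehicle they were Epcam with the replicate block (-0.006), and Krt8 (-0.05), Krt18 (-0.08) and Krt19 (-0.50) without the 2 libraries. With cytokines plus ML351 against cytokines they were Epcam with groups alone (3.6e-06) or the replicate block (0.03), and Krt18 with the acinar covariate (-0.08) or without the 2 libraries (-0.03). In the interaction they were Krt19 (0.63 with the block, 1.32 without the 2 libraries), Epcam with the block (0.03), Krt8 with the acinar covariate (-0.11) and Krt18 without the 2 libraries (0.05). Without 1 library, ML351 against vehicle ran from -0.05 to 0.15 for Krt8, -0.08 to 0.12 for Krt18, -0.50 to 2.39 for Krt19 and -0.01 to 0.04 for Epcam. Cytokines plus ML351 against cytokines ran from -0.04 to 0.09 for Krt18, -0.06 to 0.02 for Epcam and -0.39 to 0.00071 for Spp1. The interaction ran from -0.04 to 0.15 for Krt8, -0.09 to 0.11 for Krt18, -1.06 to 1.81 for Krt19 and -0.07 to 0.0081 for Epcam. DESeq2 gave no adjusted p for the Krt19 interaction.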

Other observations

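Beside the simple epithelial keratins, 2 keratin genes of hair on chromosome 15 stood higher with cytokines; both were picked after their values were seen. Krt85 had 5.42, 5.43 and 6.69 CPM with cytokines plus ML351, 8.26, 8.49 and 9.22 with cytokines, 0.0425, 0.109 and 0.236 with ML351, and 0.212, 0.234 and 0.138 with vehicle. Its log2 fold change was 5.43 with cytokines against vehicle (SE 0.306, edgeR adjusted p = 4.46e-11) and -0.57 with cytokines plus ML351 against cytokines (edgeR adjusted p = 0.196). Krt83 had 13, 13.2 and 16.3 CPM with cytokines plus ML351, 21, 24.2 and 24.8 with cytokines, 0.935, 0.219 and 0.669 with ML351, and 0.552, 1.03 and 0.506 with vehicle. Its log2 fold change was 5.06 with cytokines against vehicle (SE 0.297, edgeR adjusted p = 2.59e-09) and -0.72 with cytokines plus ML351 against cytokines (edgeR adjusted p = 0.123). For both genes every library with cytokines was above every library without, and the combination libraries lay below the cytokine libraries. Hair keratin genes are close copies of each other, so the counts of a single gene are uncertain.

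Mesothelin (Msln) had 241, 178 and 221 CPM with cytokines plus ML351, 124, 186 and 120 with cytokines, 115, 84.6 and 83.6 with ML351, and 125, 96.8 and 124 with vehicle. It rose by 1.18 with cytokines plus ML351 against ML351 (SE 0.215, edgeR adjusted p = 0.000887). The other mesothelial marker tested, Gpm6a, went the other way in the same comparison (-2.72, edgeR adjusted p = 3.73e-06).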
